A study of Mus musculus with 92 samples.

Results

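The 8 genes described here encode components of the complement cascade and receptors for its fragments: C1qa, C1qb and C1qc, C3, C4b, Cfb, C3ar1 and C5ar1. They were chosen by name, as gene symbols of the deposited expression table, and all 8 were found among its 29956 named genes.

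Complement is a cascade of secreted proteins that marks targets for uptake by phagocytes and recruits inflammatory cells. C1q, assembled from the products of C1qa, C1qb and C1qc, starts the classical pathway, in which C4 takes part in cleaving C3, whereas factor B, encoded by Cfb, forms the C3 convertase of the alternative pathway. The small fragments C3a and C5a signal through the receptors encoded by C3ar1 and C5ar1, and in the brain microglia are a main source of C1q, which together with C3 is known for tagging synapses that microglia remove.

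Bulk RNA sequencing was done on 92 mouse libraries in 25 groups, to ask how closely macrophages grown from ER-Hoxb8 cells resemble bone marrow-derived (BMD) cells and microglia, and how mutation of Adar1 alters them. ER-Hoxb8 cells are myeloid progenitors kept dividing by an estrogen-dependent form of Hoxb8, which differentiate once estrogen is withdrawn. BM progenitors, BM monocytes and BMD macrophages (3 libraries each) came from wild-type FVB bone marrow. The ER-Hoxb8 cells compared in culture came from FVB mice with a Cas9 transgene. They were collected as progenitors at day 0, after 4 days of differentiation, and as macrophages after 7 days in M-CSF (3 libraries each).

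Microglia-like cells (MLCs) were donor-derived cells sorted from the brains of Csf1r-/- hosts, which lack microglia of their own and received the cells by intracranial injection as neonates. There were 6 libraries of BMD MLCs and 6 of ER-Hoxb8 MLCs, beside 9 of microglia sorted from uninjected wild-type FVB mice. The Adar1 groups were ER-Hoxb8 cells heterozygous for Cas9, transduced with guide RNA against Adar1 (sgRNA 1 or sgRNA 2) or with a non-targeting control (NTC). For sgRNA 1 and for NTC there were 3 progenitor and 3 macrophage libraries each, and for sgRNA 2 there were 3 progenitor and 5 macrophage libraries, with no NTC libraries on the same scale. In a further experiment, NTC macrophages and macrophages labelled Adar1 KO received baricitinib, an inhibitor of the Janus kinases JAK1 and JAK2, at 5 doses, the Adar1 KO cells carrying the same sgRNA 1, here called dose 1 (0 µM), dose 2 (0.0006 µM), dose 3 (0.016 µM), dose 4 (0.4 µM) and dose 5 (10 µM). These doses are those of the sample titles, and the protocol text gives other values for doses 2 and 3.

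Expression is given as the log2 CPM that the authors deposited, with the mean ± SD where groups are described. Here CPM is the count of a gene scaled to the library's total as adjusted by TMM normalization. The libraries fell into 6 sets, each with its own lowest value, from -4.34 to -2.78 log2 CPM, and values were compared only within a set. The first set held day 0 and day 4 ER-Hoxb8 cells with the progenitors and monocytes from marrow, and the next held the macrophages, MLCs and microglia. A further set held the progenitors and macrophages with sgRNA 1 or NTC, except that NTC macrophage replicate 2 had a set of its own and entered no test. The sgRNA 2 libraries and the 33 libraries of the baricitinib experiment formed the remaining sets. Estimated depth ran from 6.13 to 49.2 M counts per library, with a median of 21.4 M, and a level at or under 3 counts is named as such below. Those limits cover counting error only.

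A gene counted as differentially expressed (a DEG) when its log2 fold change (log2FC) was 2 or more, or -2 or less, and its limma adjusted p, over all genes tested, was under 0.05. The p-values measure the spread between these libraries. The study calls the marrow, culture and brain libraries biological replicates, its ER-Hoxb8 lines without guide RNA biologically independent and the cells given baricitinib independently differentiated. Its text does not say what the replicates of the other guide-transduced groups are. A guide's effect could not be told apart from a difference between transduced lines.

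Several libraries stood apart from their group or from its label. The progenitor markers Kit, Cd34, Flt3, Mpo and Elane summed to 6715, 13704 and 15640 CPM in BM progenitors and to 5050, 6108 and 7937 CPM in BM monocytes, with Mpo the most abundant and none at 0. In ER-Hoxb8 day 0 replicates 1 to 3 the same sum was 64.4, 28.8 and 2770 CPM, whereas the macrophage markers Csf1r, Emr1, Cd68, Mertk and Fcgr1 summed to 1867, 4035 and 431 CPM. Day 0 replicates 1 and 2 therefore held little of the progenitor markers, against their label, and replicate 2 held the most of the macrophage list. NTC progenitors held 25101, 19000 and 16751 CPM of the progenitor list, sgRNA 1 progenitors 18092, 12322 and 12073 CPM, and sgRNA 2 progenitors 2609, 2308 and 2835 CPM. All 5 macrophage markers were above 1 CPM in every library of macrophages, with sums of 6551 to 8590 CPM in BMD and 6226 to 9193 CPM in ER-Hoxb8 macrophages, Cd68 being the most abundant on average.

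Microglia markers (P2ry12, Sall1, Tmem119, Siglech and Fcrls) summed to 25299 to 33362 CPM in microglia (median 30247), 1379 to 5064 CPM in BMD MLCs (median 3721) and 50.6 to 3471 CPM in ER-Hoxb8 MLCs (median 712), led on average by P2ry12. Sall1, which defines the list most closely, averaged 8.59 log2 CPM in microglia, 0.91 in ER-Hoxb8 MLCs and -0.21 in BMD MLCs. The lowest sum of the MLCs, 50.6 CPM, belonged to ER-Hoxb8 MLC replicate 6, and microglia replicate 8 held the most oligodendrocyte (161 CPM) and neuron (22.9 CPM) markers of its group. ER-Hoxb8 MLC replicates 1 to 3 carry the library name GFPHox and replicates 4 to 6 the name WTHox, and microglia replicates 8 and 9 carry the name YSWT. In the baricitinib experiment, Adar1 KO dose 4 replicate 2 held 33822 CPM of 10 interferon-stimulated genes, and replicates 1 and 3 held 22.2 and 99.5 CPM.

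Adar mRNA was not lower under the Adar1 labels in cells without baricitinib: it averaged 7.04 ± 0.10 log2 CPM in sgRNA 1 macrophages (n = 3) and 5.70 ± 0.04 in NTC macrophages (n = 2), a log2FC of 1.34 (adjusted p = 9.76e-04), and at dose 1 the log2FC of Adar1 KO over NTC was 1.85 (adjusted p = 0.0051). At dose 5 it averaged 2.16 ± 0.56 in Adar1 KO (n = 4) and 3.52 ± 0.26 in NTC (n = 3) macrophages, a log2FC of -1.36 (adjusted p = 0.0146). The mRNA level over an edited gene does not check its label.

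Among the macrophages, MLCs and microglia, and again in the baricitinib experiment, the C1q subunits varied together, and so did C4b with Cfb, so the sequence before the start of C1qb is shown, beside that of C3, which differed between the labels at every baricitinib dose. Promoters of 5 of the 8 genes (C1qb, C1qc, C3, C3ar1 and C5ar1) were in the RefSeq table for GRCm38.p6, and 250 bases before each start were searched on both strands. Capitals mark matches to the motifs of PU.1 (GAGGAA, in 23.3% of 32851 mouse promoters of the same length), C/EBP (TT, any 2 bases, G, any base, AA; 36.8%) and NF-kB (GGGA, any 4 bases, CC; 17.6%). C1qb (chr4:136886201-136886450, minus strand) held 1 match to PU.1 and 2 to NF-kB, which overlap each other. C3 (chr17:57228137-57228386, minus strand) held 3 matches to C/EBP and 3 to NF-kB.
C1qb: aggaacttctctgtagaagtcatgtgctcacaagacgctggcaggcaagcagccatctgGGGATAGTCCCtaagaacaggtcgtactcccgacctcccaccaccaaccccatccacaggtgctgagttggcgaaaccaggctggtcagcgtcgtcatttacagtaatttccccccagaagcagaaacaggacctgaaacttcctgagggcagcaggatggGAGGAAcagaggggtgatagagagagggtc
C3: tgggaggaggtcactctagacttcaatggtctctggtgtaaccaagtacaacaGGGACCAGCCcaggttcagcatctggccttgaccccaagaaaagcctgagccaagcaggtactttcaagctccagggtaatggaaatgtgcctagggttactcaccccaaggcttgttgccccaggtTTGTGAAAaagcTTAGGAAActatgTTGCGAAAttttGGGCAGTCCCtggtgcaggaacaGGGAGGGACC
C1qc held 1 match each to PU.1, C/EBP and NF-kB, C5ar1 held 1 to C/EBP, and C3ar1 held none of the 5 motifs. The interferon motifs ISRE (GAAA, any 2 bases, GAAA; in 2.98% of promoters) and GAS (TTC, any 3 bases, GAA; 7.02%) were in 0 of the 5 sequences, which says only that these letters are absent from these windows.

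In marrow and in early ER-Hoxb8 cells the C1q subunits were uneven within groups. C1qa stood at -0.91, 4.34 and 3.21 log2 CPM in BM progenitors and averaged 0.06 ± 1.02 in BM monocytes. At day 0 of the ER-Hoxb8 cells it was -3.66, -0.50 and -4.34, the first and last at 3 counts or fewer, and at day 4 it was 2.39, 0.31 and -0.63. BM progenitor replicates 2 and 3 were thus the highest of all 12 libraries, and each group overlapped its neighbour in the order progenitors, day 4, monocytes, day 0. C1qb followed the same libraries, with means of 3.27 ± 2.47 in progenitors, 0.94 ± 1.18 in monocytes, 0.37 ± 2.23 at day 4 and -1.17 ± 2.06 at day 0. C1qc had its highest mean at day 4 (3.32 ± 1.97), and at day 0 it was -2.33, 3.38 and -1.81.

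C3, the central component that all pathways cleave, was highest in BM monocytes, at 9.11, 8.86 and 9.42 log2 CPM, above every other library of the set. BM progenitors held 4.95, 7.08 and 6.59, ER-Hoxb8 cells 6.42, 7.80 and 4.98 at day 0 and 4.23, 7.79 and 4.42 at day 4, and these groups overlapped. The log2FC of C3 in monocytes over progenitors was 2.92 (SE 0.94), with an adjusted p of 0.0601, so it missed the threshold. Cfb was lower in BM progenitors (0.02, -0.61 and 0.68) than in monocytes (2.40, 2.48 and 1.89) and in day 0 cells (3.18, 2.17 and 1.88), with no overlap. At day 4 Cfb was 0.59, 2.10 and 0.34, which overlapped all of these groups. C4b was uneven, with group means between -1.24 ± 0.91 and 1.25 ± 1.49, in the order day 4, day 0, monocytes, progenitors, and all neighbours overlapped.

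Both receptors were lowest, on average, in BM progenitors. C3ar1, the C3a receptor, stood at 2.34, 1.28 and 2.48 log2 CPM there, at 3.30, 3.57 and 2.63 in monocytes, at 2.81, 8.14 and 1.95 at day 0 and at 9.04, 8.05 and 8.90 at day 4. Day 4 cells were high in every library, and day 0 replicate 2 stood with them. C5ar1, the C5a receptor, was 2.44, 4.85 and 3.52 in progenitors, 5.48, 6.80 and 6.37 in monocytes, 7.08, 8.67 and 5.50 at day 0 and 8.34, 8.66 and 8.78 at day 4. Progenitors lay below all other libraries, and the remaining groups overlapped their neighbours.

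**Figure D1:**
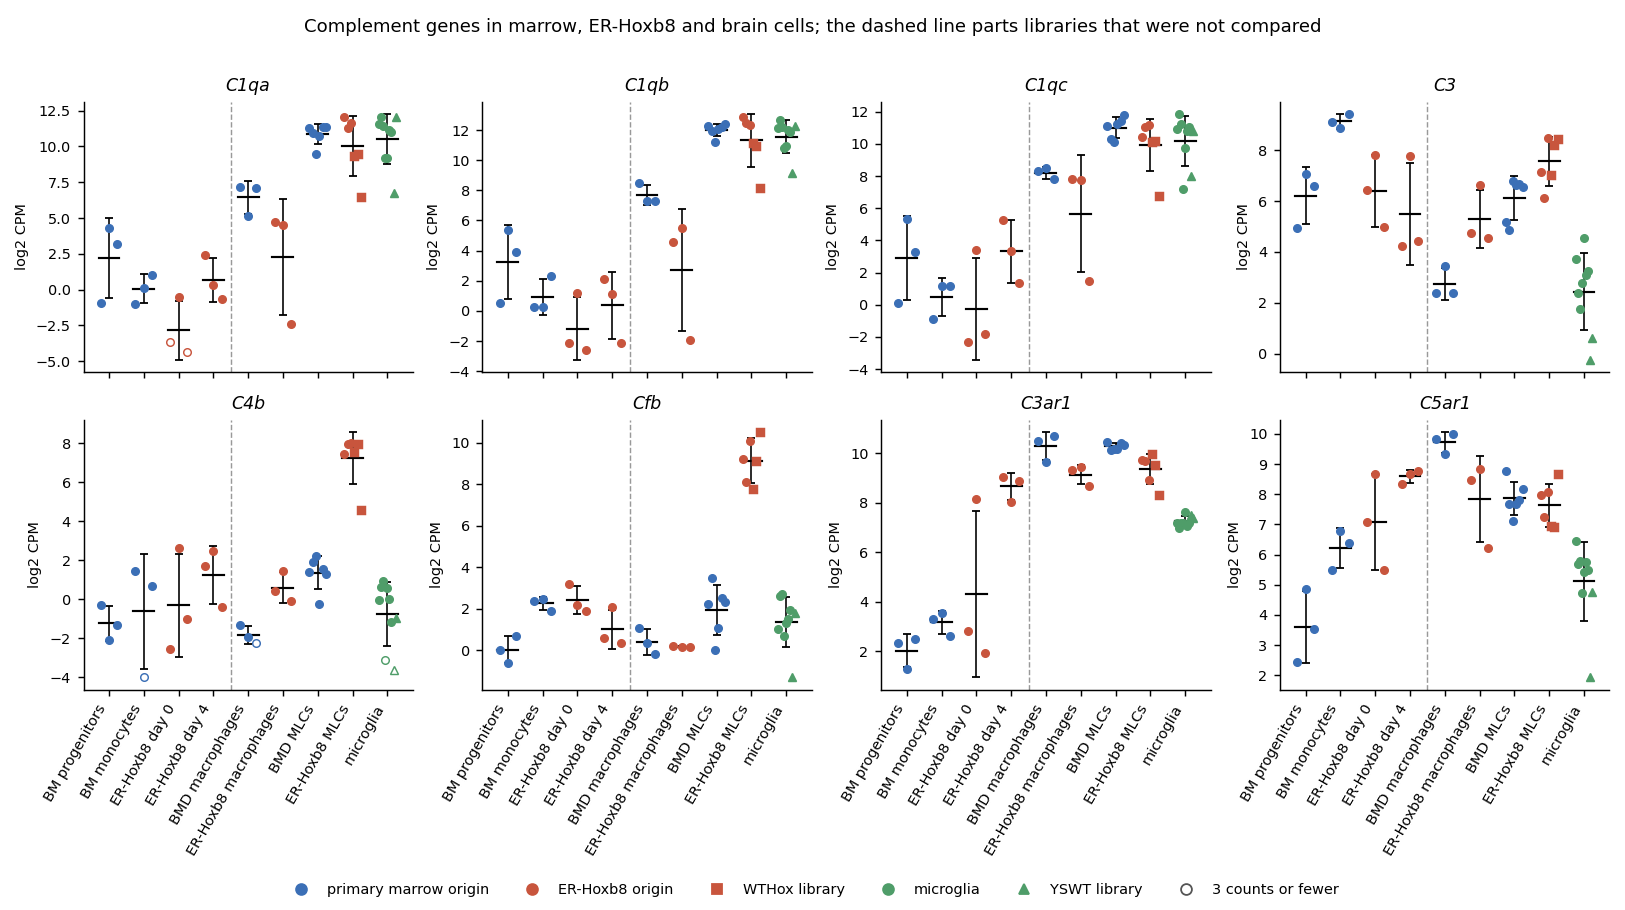
Expression (log2 CPM) of the 8 genes in the libraries from marrow, culture and brain, where each point is a library, bars give the mean ± SD, open points lie at 3 counts or fewer, squares mark WTHox and triangles YSWT libraries, and dashed lines part sets that were not compared. C3 in BM monocytes (8.86 to 9.42) and Cfb in ER-Hoxb8 MLCs (7.75 to 10.51) lie above the other groups of their sets.

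BM monocytes against BM progenitors asked what changes with differentiation in marrow. Here 2 of the 8 members were DEGs, beside 6.84% of 12056 genes tested: C5ar1 was higher by a log2FC of 2.62 (SE 0.74, adjusted p = 0.0386) and Cfb by 2.22 (SE 0.56, adjusted p = 0.0246). The median log2FC was 0.87 over the members and -0.09 over all genes. C5ar1 was no longer called without any 1 of the 6 libraries other than BM progenitor replicate 2 (log2FC 2.03 to 2.98). The same held for Cfb without any 1 library other than BM progenitor replicate 3 (1.90 to 2.40). Both calls also ended with no filter on low values. Border macrophage markers (Mrc1, Lyve1, Cd163, Pf4 and F13a1) summed to 671 to 806 CPM in progenitors and 5943 to 8910 CPM in monocytes. Mrc1 averaged 2.61 ± 1.71 log2 CPM in progenitors and 2.58 ± 0.60 in monocytes, so other genes of the list made up most of these sums. Macrophage markers summed to 125 to 175 CPM against 1120 to 1366 CPM, and interferon-stimulated genes to 61.9 to 84.3 CPM against 107 to 181 CPM. Their part in the result was not tested.

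ER-Hoxb8 day 0 cells, of which replicates 1 and 2 held little of the progenitor markers, were compared with BM progenitors. There 4 of 8 members were DEGs, beside 15.3% of all genes: C1qa fell by 5.05 on the log2 scale (SE 1.39, adjusted p = 0.0195) and C1qb fell by 4.44 (SE 1.44, adjusted p = 0.0415), while C5ar1 rose by 3.48 (SE 0.74, adjusted p = 0.00497) and Cfb by 2.38 (SE 0.56, adjusted p = 0.00895). As C1qa held 3 counts or fewer in 2 of 3 day 0 libraries, the size of its fold, here and from day 0 to day 4, cannot be relied on. The C1qa call ended without BM progenitor replicate 2 or 3 or day 0 replicate 1 (-4.63 to -3.98). The C1qb call ended without these or day 0 replicate 3 (-4.11 to -3.40), and the Cfb call without day 0 replicate 1 (2.00). C1qc was called without day 0 replicate 2 (-4.98), and C3ar1 without day 0 replicate 3 (3.44). Neutrophil markers (S100a8, S100a9, Ly6g, Camp, Ltf and Ngp) summed to 288, 9697 and 4270 CPM in BM progenitors, 480, 9091 and 4082 CPM in BM monocytes and 22.1, 38.1 and 11.7 CPM at day 0, mostly as Ngp in marrow, and their part in the result was not tested.

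From day 0 to day 4 of ER-Hoxb8 differentiation, limma called 0 of 8 members, beside 0% of all genes. At an unadjusted p under 0.05 there were 1129 genes and 3 members, with log2FC of 4.36 for C3ar1, 3.52 for C1qa and -1.40 for Cfb. The comparison turned on day 0 replicate 2: without it, C3ar1 (log2FC 6.28, adjusted p = 2.74e-05), C1qc (5.38, adjusted p = 0.0357) and C5ar1 (2.31, adjusted p = 0.0475) were called.

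Among macrophages made in culture, the C1q subunits were high in BMD cells and split in ER-Hoxb8 cells. C1qa was 7.16, 5.14 and 7.08 log2 CPM in BMD macrophages, and 4.70, 4.53 and -2.40 in ER-Hoxb8 macrophages. C1qb was 8.46, 7.30 and 7.30 in the former and 4.57, 5.49 and -1.93 in the latter, and C1qc was 8.31, 8.52 and 7.79 against 7.79, 7.75 and 1.47. ER-Hoxb8 macrophage replicate 3 was the low library for all 3 subunits, and for C1qa and C1qb the other ER-Hoxb8 libraries also lay below every BMD library.

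C3 went the other way, at 2.38, 3.44 and 2.38 in BMD and 4.75, 6.62 and 4.55 in ER-Hoxb8 macrophages, without overlap. C4b was -1.33, -1.96 and -2.25 in BMD, the last at 3 counts or fewer, and 0.43, 1.44 and -0.10 in ER-Hoxb8 macrophages. Cfb lay between -0.19 and 1.08 in both. The receptors were abundant: C3ar1 was 10.52, 9.64 and 10.72 in BMD and 9.32, 9.43 and 8.69 in ER-Hoxb8 macrophages, and C5ar1 was 9.82, 9.34 and 10.01 against 8.48, 8.85 and 6.23.

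Of the 7 members tested between these macrophages (C4b was under the filter), limma called 0, beside 1.47% of 10764 genes. At an unadjusted p under 0.05 there were 1327 genes and 4 members, with log2FC in ER-Hoxb8 over BMD cells of -4.98 for C1qb, 2.57 for C3, -1.15 for C3ar1 and -1.87 for C5ar1. Without ER-Hoxb8 macrophage replicate 3 the count was again 0, and the C1qb difference was -2.66 (adjusted p = 0.0858). The differences were then -1.06 for C5ar1, 2.95 for C3 and -0.92 for C3ar1.

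In the brain, all 3 C1q subunits reached in MLCs the range of microglia. C1qa ran from 9.50 to 11.34 log2 CPM in BMD MLCs (median 11.12), from 6.46 to 12.08 in ER-Hoxb8 MLCs (median 10.38) and from 6.78 to 12.06 in microglia (median 11.18). C1qb ran from 11.23 to 12.39 (median 12.12), from 8.13 to 12.86 (median 11.75) and from 9.17 to 12.68 (median 11.98) in the same order. C1qc ran from 10.10 to 11.78 (median 11.18), from 6.79 to 11.19 (median 10.29) and from 7.20 to 11.85 (median 10.82). The lowest ER-Hoxb8 MLC library was replicate 6 for each subunit, and the ranges of the 3 brain groups overlapped throughout.

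The GFPHox libraries of the ER-Hoxb8 MLCs held more C1q than the WTHox libraries, with C1qa at 11.67 ± 0.40 against 8.41 ± 1.69 (n = 3 each) and C1qb at 12.56 ± 0.27 against 10.08 ± 1.69. Cfb did not follow this split, at 9.13 ± 1.00 against 9.12 ± 1.38. Neutrophil markers summed to 762, 237 and 330 CPM in the GFPHox and 17843, 41079 and 3349 CPM in the WTHox libraries, and macrophage markers to 5749, 4007 and 3233 CPM against 2198, 1568 and 2108 CPM. C1q levels in both kinds of MLC lay above the macrophages of the same origin, by every library for C1qa and C1qb. In bulk samples such as these, fewer cells of a type and less RNA per cell cannot be told apart.

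BMD MLCs and ER-Hoxb8 MLCs differed from each other mainly in C4b and Cfb. Cfb ran from 7.75 to 10.51 in ER-Hoxb8 MLCs (median 9.16), from 0.01 to 3.48 in BMD MLCs (median 2.29) and from -1.30 to 2.72 in microglia (median 1.49). C4b, the mouse C4 gene next to its near-identical neighbour C4a, ran from 4.56 to 8.01 in ER-Hoxb8 MLCs (median 7.74), from -0.24 to 2.21 in BMD MLCs (median 1.48) and from -3.62 to 0.94 in microglia (median -0.06). The microglia levels of -3.62, in a YSWT library, and -3.12, in another library, were at 3 counts or fewer. The C4b folds over microglia given below include these libraries. All 6 ER-Hoxb8 MLC libraries were above all libraries of the other groups for both genes.

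C3 was graded, from 6.11 to 8.49 in ER-Hoxb8 MLCs (median 7.66), 4.87 to 6.80 in BMD MLCs (median 6.59) and -0.24 to 4.55 in microglia (median 2.77). The MLC groups overlapped each other, and microglia lay below every MLC library. The lowest microglia were replicates 8 and 9, the YSWT libraries, at -0.24 and 0.60. Across the set C3 fell in the order ER-Hoxb8 MLCs, BMD MLCs, ER-Hoxb8 macrophages, BMD macrophages and microglia, and of these neighbours the macrophage groups alone did not overlap.

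The receptors ordered the groups differently. C3ar1 ran from 10.12 to 10.45 in BMD MLCs (median 10.27), from 8.33 to 9.96 in ER-Hoxb8 MLCs (median 9.60) and from 6.99 to 7.62 in microglia (median 7.19). No range overlapped another, and the macrophages of each origin overlapped the MLCs of that origin. C5ar1 ran from 7.11 to 8.76 in BMD MLCs (median 7.75), from 6.90 to 8.67 in ER-Hoxb8 MLCs (median 7.62) and from 1.93 to 6.46 in microglia (median 5.48), lowest in microglia replicate 8. The MLC groups overlapped, and all microglia lay below them.

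MLCs against macrophages of the same origin, BMD or ER-Hoxb8, asked what changes on engraftment. The ER-Hoxb8 macrophages came from Cas9 mice and the ER-Hoxb8 MLC libraries are named GFPHox or WTHox, so their donor lines may differ. Of the 8 members, 4 were DEGs in BMD cells, beside 15.9% of 12518 genes: C1qa rose by a log2FC of 4.40 (SE 1.28, adjusted p = 0.011), C1qb by 4.32 (SE 1.07, adjusted p = 0.00359), C3 by 3.38 (SE 0.78, adjusted p = 0.00187) and C4b by 3.20 (SE 0.88, adjusted p = 0.00782). C1qc (2.79, adjusted p = 0.0546) missed the threshold, and C5ar1 was lower by less than the fold limit (-1.86, adjusted p = 0.0347). The median log2FC was 2.99 over the members and -0.01 over all genes. Without BMD macrophage replicate 2, C1qa was no longer called (3.74, adjusted p = 0.0656), and without BMD MLC replicate 1, C5ar1 was (-2.04). The C4b fold includes a BMD macrophage library at 3 counts or fewer, and the C4b call ended with log2(CPM + 1) (1.57).

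In ER-Hoxb8 cells 6 of 8 members rose on engraftment, beside 19.3% of genes, with a median of 5.47 over the members and -0.15 over all genes. Cfb rose by 8.96 (SE 0.75, adjusted p = 1.23e-09), C1qb by 8.61 (SE 1.07, adjusted p = 1.11e-06), C1qa by 7.76 (SE 1.28, adjusted p = 5.28e-05), C4b by 6.66 (SE 0.88, adjusted p = 2.80e-06), C1qc by 4.29 (SE 1.10, adjusted p = 0.00408) and C3 by 2.26 (SE 0.78, adjusted p = 0.0265). Both receptors differed by less than 1 log2 unit. Without ER-Hoxb8 macrophage replicate 3, the low C1q library, C1qc (2.19, adjusted p = 0.0983) and C3 (1.88) were not called, C1qa was 5.43 and C1qb was 6.29. C3 also missed the call without ER-Hoxb8 macrophage replicate 1 (1.98) and with the GFPHox libraries alone (1.94, adjusted p = 0.128). All 6 calls remained without ER-Hoxb8 MLC replicate 6.

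The difference between these engraftment effects was tested directly, and 1 of 8 members passed, beside 2.48% of genes. Cfb rose more in ER-Hoxb8 than in BMD cells, by a log2FC of 7.42 (SE 1.06, adjusted p = 1.01e-04). C1qb (4.29, adjusted p = 0.131) and C4b (3.46, adjusted p = 0.139) missed the threshold, and C1qb was called without ER-Hoxb8 macrophage replicate 2 (5.68, adjusted p = 0.0434). Without ER-Hoxb8 macrophage replicate 3 the C1qb difference was 1.97 and the Cfb call remained, as it did without ER-Hoxb8 MLC replicate 6.

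Against microglia, the MLCs were compared to ask how far they match the brain's own macrophages. None of the C1q subunits was a DEG in either comparison, with log2FC between -0.46 and 0.82. In BMD MLCs 4 of 8 members were higher, beside 10.7% of genes: C3 by 3.68 (SE 0.58, adjusted p = 2.81e-05), C3ar1 by 3.02 (SE 0.21, adjusted p = 2.41e-11), C5ar1 by 2.75 (SE 0.49, adjusted p = 1.52e-04) and C4b by 2.11 (SE 0.66, adjusted p = 0.0222). C4b lost its call without BMD MLC replicate 2 or 3 or microglia replicate 4 or 8 (1.75 to 2.00), and without both YSWT libraries (1.67, adjusted p = 0.0575). This C4b call also ended with log2(CPM + 1) (1.07), quantile normalization (1.82), a replicate block (1.53) and library weights (1.24). C3, C3ar1 and C5ar1 kept their calls without microglia replicate 8.

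In ER-Hoxb8 MLCs 5 of 8 members were higher than in microglia, beside 16.3% of genes. C4b was higher by 8.00 (SE 0.66, adjusted p = 2.52e-10), Cfb by 7.75 (SE 0.56, adjusted p = 1.95e-11), C3 by 5.13 (SE 0.58, adjusted p = 7.88e-08), C5ar1 by 2.53 (SE 0.49, adjusted p = 2.21e-04) and C3ar1 by 2.10 (SE 0.21, adjusted p = 1.01e-08). Without ER-Hoxb8 MLC replicate 4, C3ar1 was at 1.98 and under the fold limit (adjusted p = 6.07e-08). The count was again 5 without microglia replicate 8 or without ER-Hoxb8 MLC replicate 6. Both comparisons share the microglia libraries.

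Set directly against BMD MLCs, ER-Hoxb8 MLCs had 2 of 8 members as DEGs, beside 6.56% of genes: Cfb, higher by 7.18 (SE 0.61, adjusted p = 6.81e-09), and C4b, higher by 5.89 (SE 0.72, adjusted p = 1.87e-06). C3ar1 was lower by less than the fold limit (-0.93, adjusted p = 0.00708), and the C3 difference was 1.45 (adjusted p = 0.128). The C1q subunits differed by -1.04 to -0.69, and without ER-Hoxb8 MLC replicate 6 by -0.40 to -0.05, with no call either way.

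Interferon-stimulated genes, like C4b and Cfb, were higher in ER-Hoxb8 MLCs than in the other brain groups. The 10 genes of that list (Ifit1, Ifit2, Ifit3, Isg15, Rsad2, Oasl1, Irf7, Mx1, Usp18 and Cxcl10) summed to 1255 to 4440 CPM in ER-Hoxb8 MLCs (median 3148), 58.9 to 178 CPM in BMD MLCs (median 136) and a median of 45.0 CPM in microglia, led on average by Ifit2. All 10 were DEGs, and higher, in ER-Hoxb8 MLCs against BMD MLCs, microglia and ER-Hoxb8 macrophages, with median log2FC of 4.31, 5.76 and 5.09. Within the ER-Hoxb8 MLCs, replicate 6 had the highest sum (4440 CPM) and Cfb (10.51) but the lowest C4b (4.56). Their part in the complement results was not tested.

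Markers of other cells also differed between the sorted groups. Neutrophil markers (S100a8, S100a9, Ly6g, Camp, Ltf and Ngp) summed to 4434 to 32953 CPM in BMD MLCs (median 29838), 237 to 41079 CPM in ER-Hoxb8 MLCs (median 2056) and 406 to 5862 CPM in microglia (median 1950), mostly as Ngp. In macrophages they summed to 3.21 to 37.8 CPM, led by S100a8 or Ngp. Border macrophage markers (Mrc1, Lyve1, Cd163, Pf4 and F13a1) summed to 1888 to 3490 CPM in BMD MLCs, 271 to 1245 CPM in ER-Hoxb8 MLCs and 18.4 to 171 CPM in microglia, led on average by Mrc1. Border macrophage sums were higher in every MLC library than in every microglia library, as were C3, C3ar1 and C5ar1, while the neutrophil ranges overlapped, and the part of either list in the result was not tested.

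Markers of brain cells were also measured in the sorted groups. Astrocyte markers (Gfap, Aqp4, Aldoc, Slc1a3 and Gja1) summed to 20.4 to 40.4 CPM in BMD MLCs, 33.9 to 103 CPM in ER-Hoxb8 MLCs and 170 to 572 CPM in microglia, led by Slc1a3 in microglia and Aldoc in MLCs, with Aqp4 at 0 in BMD MLCs and microglia. Oligodendrocyte markers (Mbp, Mog, Mag and Mobp; led on average by Mbp) had medians of 50.2, 83.6 and 55.3 CPM in BMD MLCs, ER-Hoxb8 MLCs and microglia, and neuron markers (Snap25, Syt1, Rbfox3, Slc17a7 and Gad1) of 2.92, 4.30 and 2.15 CPM, with Slc17a7 at 0. Endothelial markers (Cldn5, Pecam1, Flt1, Slco1a4 and Cdh5) summed to 10.6 to 28.2 CPM in BMD MLCs, 44.4 to 90.6 CPM in ER-Hoxb8 MLCs and 32.3 to 68.8 CPM in microglia, so that they parted the kinds of MLC in every library, with Cdh5 at 0 in both. Dissociation genes (Fos, Jun, Egr1, Atf3 and Hspa1a) had medians of 85.7, 146 and 30.4 CPM, and the part of these lists in the result was not tested.

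Outside the baricitinib experiment, in macrophages with sgRNA 1, C1qa and C1qb were lower and Cfb higher than with NTC, while C1qc was under the fold limit. C1qa stood at 2.23, 1.19 and 1.01 log2 CPM in sgRNA 1 macrophages, at 4.43 and 4.37 in NTC macrophages, and between -0.90 and -0.49 in the progenitors of both labels. C1qb was 2.54, 2.00 and 1.73 in sgRNA 1 and 4.91 and 4.96 in NTC macrophages, and C1qc was 2.00, 1.79 and 1.42 against 3.17 and 3.52. NTC macrophages were above sgRNA 1 macrophages, and those above all progenitors, in every library for each subunit. NTC macrophage replicate 2, on its own scale, held 4.86, 5.60 and 4.46 of C1qa, C1qb and C1qc.

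Cfb was 7.14, 6.63 and 5.02 in sgRNA 1 macrophages and 1.27 and 0.84 in NTC macrophages, and C3 was 8.71, 7.75 and 6.66 against 5.81 and 5.58. Both genes were higher in every sgRNA 1 than in every NTC macrophage library. C4b was 3.63, 3.54 and 2.03 against 1.85 and 1.71. In progenitors Cfb was 2.18, 1.74 and 1.92 under sgRNA 1 and 0.94, 1.02 and 0.22 under NTC, C3 lay between 4.92 and 6.00 in all, and C4b between -2.26 and 0.55.

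C3ar1 was the member that separated macrophages from progenitors most, at 9.80, 10.14 and 9.97 in sgRNA 1 macrophages, 10.65 and 10.63 in NTC macrophages and -0.06 to 0.97 in progenitors. C5ar1 was 8.41, 8.28 and 8.21 against 8.74 and 8.74 in macrophages, and 2.96 to 3.92 in progenitors. For both receptors every NTC macrophage library lay just above every sgRNA 1 macrophage library.

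**Figure D2:**
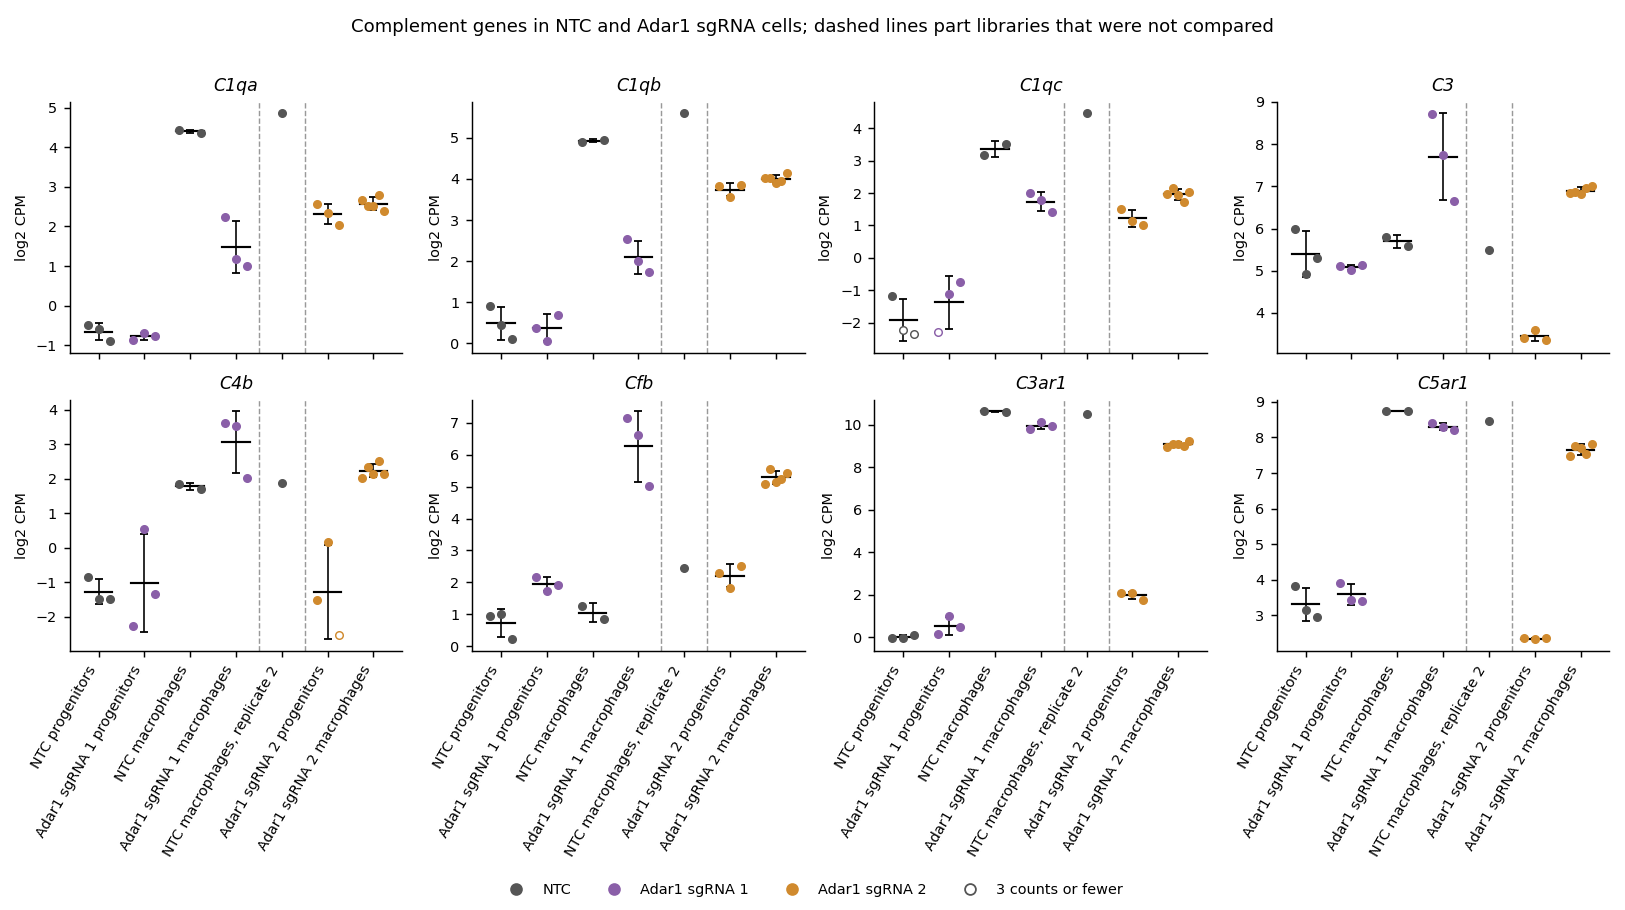
Expression (log2 CPM) of the 8 genes in progenitors and macrophages with sgRNA 1, sgRNA 2 or NTC, where each point is a library, bars give the mean ± SD, open points lie at 3 counts or fewer and dashed lines part sets that were not compared. Cfb in sgRNA 1 macrophages (5.02 to 7.14) lies above NTC macrophages (0.84 and 1.27), and C1qa (1.01 to 2.23) below them (4.37 and 4.43).

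In macrophages, sgRNA 1 against NTC gave 4 of 8 members as DEGs, beside 4.02% of 11008 genes. Cfb rose by a log2FC of 5.21 (SE 0.50, adjusted p = 2.19e-05) and C3 by 2.02 (SE 0.46, adjusted p = 0.00937), while C1qa fell by 2.92 (SE 0.35, adjusted p = 1.27e-04) and C1qb fell by 2.84 (SE 0.32, adjusted p = 6.83e-05). C1qc (-1.61) and C3ar1 (-0.67), each with an adjusted p of 0.0387, were under the fold limit, and C4b was not called (1.28, adjusted p = 0.223). The median was -0.56 over the members and 0.05 over all genes. C3 stood at the fold limit and lost its call without sgRNA 1 macrophage replicate 1 or 2 or NTC macrophage replicate 3 (1.51 to 1.99). Leaving out an NTC library leaves 1, which is assumed to vary like the other groups.

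In progenitors the same contrast gave 0 of 8 members by limma, beside 0.254% of genes. At an unadjusted p under 0.05 there were 725 genes and 2 members, Cfb at 1.22 and C3ar1 at 0.53. Tested directly, the sgRNA 1 effect differed between macrophages and progenitors in 4 of 8 members, beside 4.19% of genes. The difference was 3.99 for Cfb (SE 0.67, adjusted p = 0.00228), 2.34 for C3 (SE 0.62, adjusted p = 0.0288), -2.80 for C1qa (SE 0.48, adjusted p = 0.00235) and -2.73 for C1qb (SE 0.43, adjusted p = 0.00133). C3ar1 passed the p threshold at -1.20 (SE 0.28, adjusted p = 0.0148), under the fold limit. The C3 call ended without any 1 of the 11 libraries other than sgRNA 1 macrophage replicate 3 and NTC progenitor replicates 2 and 3 (1.84 to 2.45). C1qc was called without replicate 1 of the sgRNA 1 or of the NTC progenitors (-2.61 and -2.53).

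Macrophages against progenitors showed which members belong to differentiation under each label. The NTC progenitor libraries carry the name NTC2Prog and the tested NTC macrophage libraries the name NTC, so their lines may differ. With NTC, 6 of 8 were DEGs, beside 23.5% of genes: C3ar1 rose by 10.65, C5ar1 by 5.43, C1qc by 5.26, C1qa by 5.06, C1qb by 4.45 and C4b by 3.06. C3 (0.29) and Cfb (0.33) did not pass, and C1qc held 3 counts or fewer in 2 of 3 NTC progenitor libraries, so the size of its fold cannot be relied on. With sgRNA 1, 7 of 8 were DEGs, beside 21.6% of genes: C3ar1 rose by 9.45, C5ar1 by 4.71, Cfb by 4.32, C4b by 4.09, C1qc by 3.11, C3 by 2.63 and C1qa by 2.26. C1qb was at 1.72 (adjusted p = 1.92e-04), under the fold limit, and C1qa joined it without sgRNA 1 macrophage replicate 1 (1.88).

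With sgRNA 2, on a scale of its own, 5 of 8 members rose from progenitors to macrophages, beside 19.3% of 10698 genes: C3ar1 by 7.13, C5ar1 by 5.31, C4b by 3.53, C3 by 3.45 and Cfb by 3.08. Cfb was 2.31, 1.81 and 2.50 in progenitors and 5.07 to 5.56 in the 5 macrophage libraries, and C3 was 3.40, 3.59 and 3.36 against 6.82 to 7.01. No library of one group reached the other for these genes. C1qa was 2.56, 2.34 and 2.04 in progenitors and 2.39 to 2.80 in macrophages, which overlap, and its log2FC was 0.27. C1qb (0.27, adjusted p = 0.0308) and C1qc (0.74, adjusted p = 0.00302) were under the fold limit. The sgRNA 2 cells have no NTC group on this scale, so the guide's effect could not be tested.

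The same 10 interferon-stimulated genes summed to 9768, 8363 and 4416 CPM in sgRNA 1 macrophages, led on average by Ifit2, and to 139 and 124 CPM in NTC macrophages, and all 10 were DEGs between them (median log2FC 5.56). In sgRNA 2 cells the sums were 5698 to 6308 CPM in macrophages and 25.3, 22.2 and 22.2 CPM in progenitors. In sgRNA 1 macrophages replicate 3 was the lowest of its group for this sum as well as for Cfb, C3 and C4b. Border macrophage markers summed to 250 to 368 CPM in sgRNA 1 macrophages and to 1886 and 2343 CPM in NTC macrophages, led by F13a1, with Lyve1 at 0. Macrophage markers summed to 4938 to 5529 CPM against 8799 and 7829 CPM, neutrophil markers to 69.1 to 82.6 CPM against 15.4 and 10.8 CPM, led by S100a8, and endothelial markers to 101 to 141 CPM against 37.2 and 48.1 CPM, led by Flt1. The part of these lists in the C1q and Cfb results was not tested.

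In the baricitinib experiment, C3 separated Adar1 KO from NTC macrophages at every dose and Cfb at doses 1 to 3, and the C1q subunits separated dose 5 from dose 1. C3 in NTC cells was 3.77, 2.73 and 3.10 log2 CPM at dose 1 and 2.97, 2.55 and 3.14 at dose 5. In Adar1 KO cells it was 7.87, 6.78 and 7.04 at dose 1, 4.75, 9.07 and 4.76 at dose 4, and 4.86, 4.72, 4.78 and 5.24 at dose 5. Every Adar1 KO library lay above every NTC library, at any dose. The mean C3 at doses 1 to 5 was 3.20, 3.51, 2.93, 2.66 and 2.89 in NTC, and 7.23, 7.17, 7.66, 6.19 and 4.90 in Adar1 KO cells.

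Cfb in Adar1 KO cells was 5.41, 4.91 and 4.88 at dose 1, 5.76, 5.55 and 5.01 at dose 3, 0.30, 6.69 and 0.75 at dose 4, and -1.92, -1.14, 0.04 and -1.25 at dose 5. The first of these dose 5 levels was at 3 counts or fewer. In NTC cells Cfb was -0.20, -0.07 and -0.08 at dose 1 and -0.46, -0.26 and -2.37 at dose 5, the last at 3 counts or fewer. Doses 1 to 3 of Adar1 KO thus lay above all NTC libraries, dose 4 was split by replicate 2, and dose 5 overlapped NTC dose 5. C4b in Adar1 KO cells was 4.64, 2.50 and 1.31 at dose 1, 3.01, 2.78 and 2.73 at dose 3, -1.53, 1.19 and 0.77 at dose 4, and -2.78, -2.78, -2.37 and 0.15 at dose 5, where 3 of 4 libraries held 3 counts or fewer. In NTC cells C4b was -1.50, -1.78 and 0.73 at dose 1, the first 2 at 3 counts or fewer, and at or under 3 counts in all 3 libraries at dose 5.

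The C1q subunits were highest at dose 5 under both labels. C1qa was 0.88, 0.42 and -0.40 at dose 1 and 4.18, 4.64 and 3.30 at dose 5 in NTC cells, and -0.78, 0.18 and -0.10 against 2.97, 3.39, 3.97 and 3.27 in Adar1 KO cells. Its means at doses 2 to 4 were 1.07, 1.25 and 1.67 in NTC and -0.37, 0.15 and 0.94 in Adar1 KO cells, all below the means at dose 5. C1qb at dose 5 was 3.68, 4.50 and 2.83 in NTC and 1.73, 2.39, 1.86 and 2.10 in Adar1 KO cells, without overlap, from -1.90 to -0.70 and -0.99 to -0.89 at dose 1. The level of -1.90 in NTC cells was at 3 counts or fewer. C1qc at dose 5 was 4.28, 5.62 and 3.37 in NTC and 4.25, 4.62, 5.32 and 4.40 in Adar1 KO cells, from 1.63 to 3.01 and -0.79 to 2.01 at dose 1. All 7 dose 5 libraries were above all 6 dose 1 libraries for each subunit.

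Other lists also differed between dose 1 and dose 5. Border macrophage markers summed to 896 to 1122 CPM at dose 1 and 1990 to 2199 CPM at dose 5 in NTC cells, and to 282 to 426 CPM against 1648 to 2201 CPM in Adar1 KO cells, led by F13a1. Mrc1 of this list went the other way. It averaged 5.59 log2 CPM at dose 1 and 3.47 at dose 5 in NTC cells, and 6.55 against 5.75 in Adar1 KO cells. Macrophage markers summed to 4672 to 4765 CPM against 3761 to 4078 CPM in NTC and 4783 to 5081 CPM against 2543 to 3103 CPM in Adar1 KO cells, and dissociation genes to 437 to 492 CPM against 178 to 209 CPM and 370 to 400 CPM against 73.2 to 94.5 CPM, led on average by Cd68 and Fos. Endothelial markers, led by Flt1, summed to 51.3 to 55.7 CPM against 22.4 to 32.5 CPM in NTC and 70.4 to 88.3 CPM against 31.1 to 39.4 CPM in Adar1 KO cells. Microglia markers, led by Tmem119, summed to 118 to 145 CPM against 149 to 165 CPM in NTC and 215 to 350 CPM against 68.0 to 162 CPM in Adar1 KO cells. P2ry12 of this list averaged -0.99 log2 CPM at dose 1 and 2.12 at dose 5 in Adar1 KO cells, and -1.15 against 0.27 in NTC cells. At dose 1 it was at 3 counts or fewer in 1 library of each label. The part of these lists in the C1q result was not tested.

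The receptors differed less between doses 1 and 5 than the C1q subunits did. C3ar1 was 10.17, 10.36 and 10.31 in NTC and 9.04, 9.28 and 9.50 in Adar1 KO cells at dose 1, and 10.10, 10.04 and 10.18 against 9.12, 9.09, 8.88 and 8.75 at dose 5. C5ar1 was 8.75, 8.94 and 8.78 against 6.74, 8.09 and 8.46 at dose 1, and 9.53, 9.43 and 9.56 against 8.54, 8.58, 8.83 and 8.70 at dose 5. NTC libraries lay above Adar1 KO libraries for both receptors at doses 1 and 5, and every dose 5 library of C5ar1 lay above every dose 1 library of the same label. At dose 4 C3ar1 was split in Adar1 KO cells, with replicate 2 (11.27) above every NTC library of that dose and replicates 1 and 3 (9.69 and 9.62) below, and the mean of C5ar1 was 8.96.

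**Figure D3:**
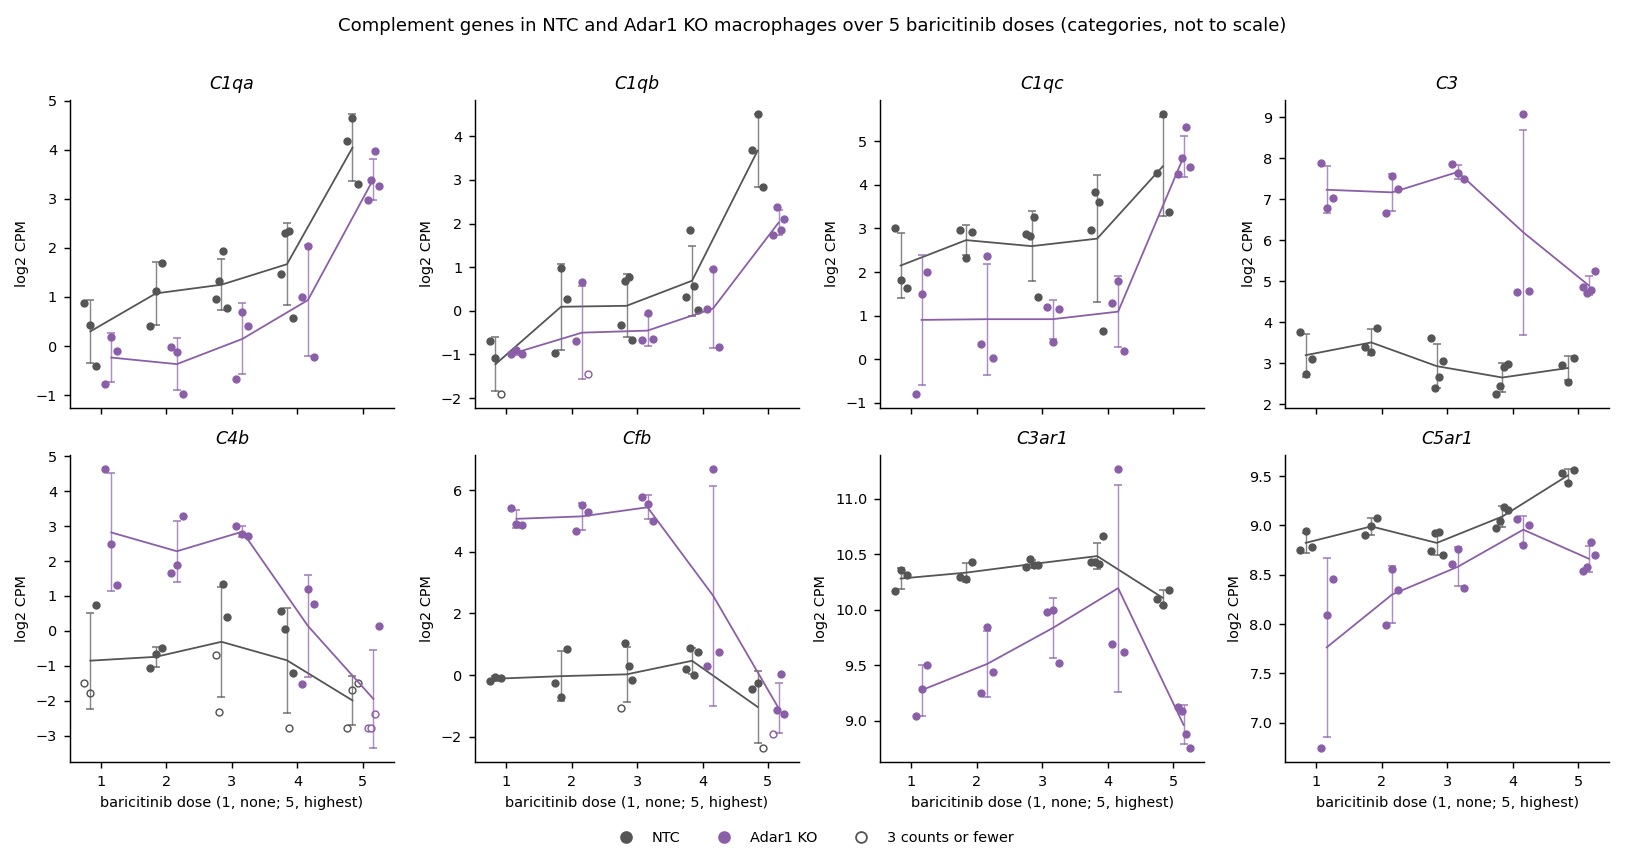
Expression (log2 CPM) of the 8 genes at baricitinib doses 1 to 5, drawn as categories, in NTC and Adar1 KO macrophages, where each point is a library, bars give the mean ± SD and open points lie at 3 counts or fewer. C3 in Adar1 KO cells lies above NTC at each dose, with dose 4 split between 9.07 in replicate 2 and 4.75 and 4.76 in the others, and C1qa is highest at dose 5.

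Adar1 KO against NTC was tested at each dose, to ask whether the inhibitor alters the effect of the label. At dose 1, 3 of 8 members were DEGs, beside 3.87% of 11152 genes: Cfb rose by 5.18 (SE 0.94, adjusted p = 1.49e-04), C3 by 4.03 (SE 0.63, adjusted p = 2.29e-05) and C4b by 3.67 (SE 0.97, adjusted p = 0.00595). At doses 2 and 3 it was again these 3 of 8, beside 5.00% and 5.12% of genes, with C3 at 3.65 and 4.73, Cfb at 5.18 and 5.41 and C4b at 3.02 and 3.15. None of the C1q subunits was called at any of the doses with all libraries in. NTC cells held 3 counts or fewer of C4b in 2 of 3 libraries at dose 1 and 2 of 4 at dose 3, so the size and p of its folds there cannot be relied on. C4b lost its call without Adar1 KO replicate 1 at dose 1 (2.76, adjusted p = 0.0621), and without Adar1 KO replicate 3 (2.52) or NTC replicate 1 (2.86) at dose 2. C1qc was called, and lower, without Adar1 KO replicate 2 at dose 2 (-2.54) and without NTC replicate 4 at dose 3 (-2.07).

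At dose 4 only C3 passed, 1 of 8 beside 1.78% of genes, with a log2FC of 3.54 (adjusted p = 1.35e-04), and Cfb did not (2.11, adjusted p = 0.108). Both values depended on Adar1 KO replicate 2: without it C3 was at 2.10 (SE 0.32, adjusted p = 5.98e-05) and Cfb at 0.06 (adjusted p = 0.973). Cfb was called without Adar1 KO replicate 1 (3.25) or replicate 3 (3.03), and C1qc without NTC replicate 4 (-2.38). At dose 5 only C3 passed, 1 of 8 beside 3.14% of genes, at 2.01 (SE 0.59, adjusted p = 0.00639), and it fell below the fold limit without Adar1 KO replicate 4 or NTC replicate 2 (1.84 to 1.90). This C3 call also ended with log2(CPM + 1) and with a replicate block. C1qb was lower under the fold limit (-1.65, adjusted p = 0.0133) and was called without NTC replicate 3 (-2.07). C4b held 3 counts or fewer in most libraries of both groups at dose 5, so no fold is given.

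The receptors were lower in Adar1 KO than in NTC cells by less than the fold limit, at dose 1 by -1.01 for C3ar1 (adjusted p = 0.00313) and -1.06 for C5ar1 (adjusted p = 0.0012), and at dose 5 by -1.15 (adjusted p = 1.75e-04) and -0.85 (adjusted p = 0.00219). At dose 2 C3ar1 was at -0.82, C5ar1 at -0.69 and C1qa at -1.44, with adjusted p of 0.0119, 0.0251 and 0.0429.

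Dose 5 against dose 1 asked what the inhibitor does under each label. In NTC cells 3 of 8 members rose, beside 0.834% of genes: C1qb by 4.89 (SE 0.57, adjusted p = 1.77e-06), C1qa by 3.74 (SE 0.53, adjusted p = 2.43e-05) and C1qc by 2.27 (SE 0.75, adjusted p = 0.0422). The C1qb fold in NTC cells includes a dose 1 library at 3 counts or fewer. C1qc lost its call without any 1 of the 6 libraries other than NTC dose 5 replicate 3 (1.67 to 2.70). In Adar1 KO cells 6 of 8 were DEGs, beside 14.7% of genes: C1qc rose by 3.74 (SE 0.70, adjusted p = 3.56e-05), C1qa by 3.64 (SE 0.50, adjusted p = 3.50e-07) and C1qb by 2.97 (SE 0.54, adjusted p = 2.23e-05), whereas Cfb fell by 6.13 (SE 0.88, adjusted p = 7.33e-07), C4b fell by 4.77 (SE 0.91, adjusted p = 4.41e-05) and C3 fell by 2.33 (SE 0.59, adjusted p = 0.00105). The C4b fold includes a dose 5 group with 3 of 4 libraries at 3 counts or fewer, so neither its size nor its p can be relied on. The Cfb fold includes Adar1 KO dose 5 replicate 1, also at 3 counts or fewer. C5ar1 was higher under the fold limit in both, at 0.68 (adjusted p = 0.0476) and 0.90 (adjusted p = 6.89e-04).

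The change of the Adar1 KO effect from dose 1 to dose 5 passed in 2 of 8 members, beside 7.11% of genes: Cfb at -5.22 (SE 1.29, adjusted p = 0.00214) and C4b at -3.63 (SE 1.33, adjusted p = 0.0312). The C4b value includes dose 5 groups, and an NTC dose 1 group, with most libraries at 3 counts or fewer, so neither its size nor its p can be relied on. The Cfb value includes Adar1 KO replicate 1 and NTC replicate 3 of dose 5, both at 3 counts or fewer. C3 (-2.02, adjusted p = 0.0639) and C1qb (-1.92, adjusted p = 0.053) missed it. The C4b call ended without replicate 1 of Adar1 KO or NTC at dose 1, NTC replicate 2 at dose 1, replicates 1 or 2 of Adar1 KO at dose 5, or replicates 2 or 3 of NTC at dose 5 (-3.48 to -2.72). C1qb was called without NTC replicate 1 at dose 1 or NTC replicate 3 at dose 5 (-2.18 and -2.34).

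Interferon-stimulated genes summed to 3357, 3152 and 3467 CPM in Adar1 KO and 62.0, 53.8 and 49.2 CPM in NTC cells at dose 1, and to 18.4 to 21.0 CPM against 18.1, 19.4 and 20.2 CPM at dose 5, led on average by Ifit2. At doses 1 to 5, 10, 9, 10, 10 and 0 of the 10 were DEGs between the labels, with median log2FC of 5.25, 5.16, 6.46, 4.32 and 0.08. At dose 4 the mean of the list was 10.53 log2 CPM in Adar1 KO replicate 2, against 0.34 and 2.32 in replicates 1 and 3 and -0.19 to 0.23 in NTC. Beside the 0 at dose 5, limma gave 0 of them at an unadjusted p under 0.05. C3 was the only member called as a DEG at that dose, and the part of these genes in the complement results was not tested.

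**Figure D4:**
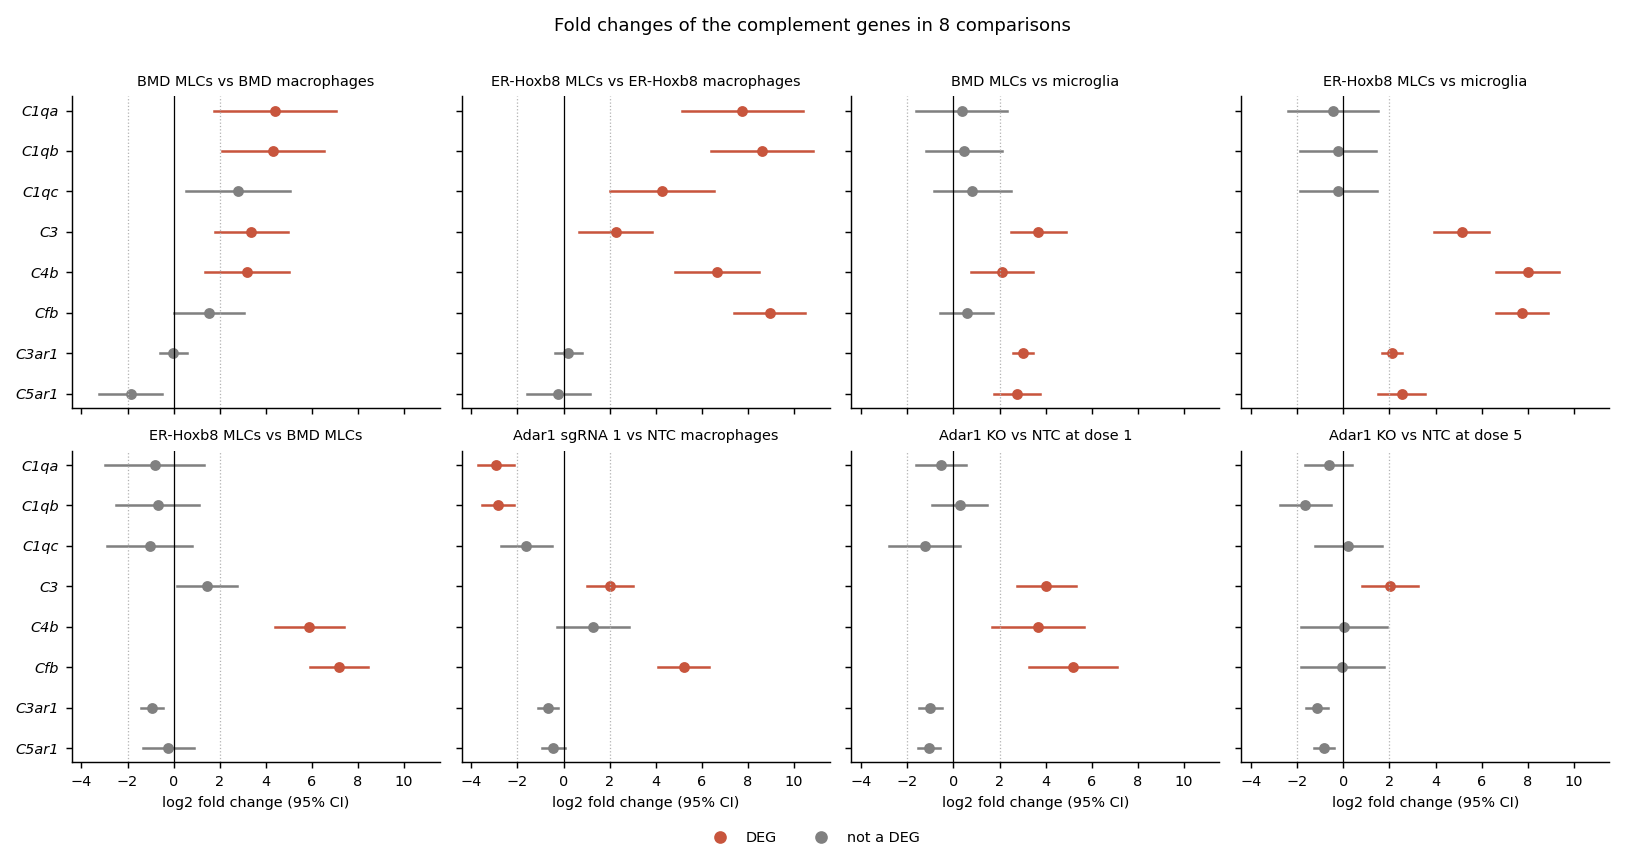
The log2FC of each member with its 95% confidence interval in 8 comparisons, red where the gene was a DEG, with dotted lines at 2 and -2. Cfb is at 8.96 for ER-Hoxb8 MLCs over macrophages and 5.21 for sgRNA 1 over NTC macrophages, while C1qa is at 7.76 and -2.92.

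How the members varied with each other was described by Pearson's r over the 27 libraries of macrophages, MLCs and microglia, which fall into the same 5 groups. C1qa and C1qb had r = 0.98, C1qa and C1qc 0.94, C4b and Cfb 0.90, C3 and C4b 0.78, C3ar1 and C5ar1 0.76, and C1qa and C3 0.05. Over the 33 baricitinib libraries, C1qa and C1qb had r = 0.93, C3 and Cfb 0.86, C4b and Cfb 0.81, C1qa and Cfb -0.59 and C1qc and C4b -0.72. In both sets the C1q subunits kept together, as did C4b with Cfb.

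The genes most like each member over the 27 libraries, by r, were Lair1 (0.95) and Havcr2 (0.93) for C1qa, and Lair1 (0.95) for C1qb. For Cfb they were Serpina3f (0.97), BC023105 (0.97) and Gbp5 (0.96), and for C4b Gbp6 (0.94), Serpina3g (0.92) and F830016B08Rik (0.92). C3 was most like Klra2 (0.90), C3ar1 most like Nrp1 (0.92), and C5ar1 most like Fam129a (0.96). Over the baricitinib libraries the most like genes were Ly6c2 (0.98) for C3, Plac8 (0.97) for Cfb, Bscl2 (0.85) for C4b, Ddx39 (0.87) for C1qa, Cd300e (0.81) for C1qb, Lpxn (0.96) for C3ar1 and Ripk3 (0.88) for C5ar1. C1qc was most like Havcr2 (0.87) in the former set and Bax (0.85) in the latter.

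Other genes of the pathway were counted from a list of 41, of which 40 were used here and 15 to 20 passed the filter in a given comparison. In BM monocytes against progenitors 3 were higher and 2 lower of 19 tested, beside 6.84% of all genes, among them Cfp, which encodes properdin (2.92), C1rl (2.74), Itgb2, an integrin chain of complement receptors (2.25), and the regulator Cd59a (-3.48). At day 0 against BM progenitors 1 was higher and 3 lower, beside 15.3%, led by the regulators Cd55 (-8.59) and Serping1 (-5.02) and by Fcnb (-6.34). From day 0 to day 4, and between the cultured macrophages, limma called 0, with 4 and 2 at an unadjusted p under 0.05, beside 0% and 1.47% of all genes called.

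Engraftment moved pathway genes both ways, with 4 higher and 4 lower of 20 in BMD cells, beside 15.9% of all genes (Fcnb, a ficolin, at 7.40 and Cfp at -3.91) and 5 higher and 5 lower in ER-Hoxb8 cells, beside 19.3% (C5ar2, a further C5a receptor, at 3.64 and Cfp at -3.36). Against microglia, 4 of 20 genes were higher and 0 lower in each kind of MLC, beside 10.7% of all genes in BMD and 16.3% in ER-Hoxb8 MLCs, among them C1ra (2.49 in BMD and 3.78 in ER-Hoxb8 MLCs). ER-Hoxb8 MLCs had 3 genes lower and none higher than BMD MLCs, beside 6.56% of all genes, Fcna (-3.28), Fcnb (-3.02) and Cd59a (-2.07). The engraftment effects differed in 0 of 20 by limma, beside 2.48% of all genes, with 2 at an unadjusted p under 0.05.

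Colec12, a collectin, was lower in sgRNA 1 than in NTC macrophages (-3.70), where 1 of 18 genes was higher and 2 were lower, beside 4.02% of all genes. In progenitors 0 differed by limma, beside 0.254%, with 5 at an unadjusted p under 0.05, and the difference of these effects passed for Colec12 alone (-3.47), beside 4.19%. With NTC, 7 of 18 rose and 4 fell from progenitors to macrophages, with sgRNA 1 it was 9 and 3, and with sgRNA 2 it was 7 and 1 of 16, beside 23.5%, 21.6% and 19.3% of all genes. At baricitinib doses 1 to 5, Colec12 was lower in Adar1 KO than in NTC cells by -4.49, -4.33, -4.31, -3.39 and -3.56, and 2, 1, 2, 1 and 1 of 16 genes were DEGs, all lower, beside 3.87%, 5.00%, 5.12%, 1.78% and 3.14% of all genes. From dose 1 to dose 5, 0 passed in NTC cells by limma, beside 0.834% of all genes, with 6 at an unadjusted p under 0.05, and in Adar1 KO cells C5ar2 (2.12) rose while C1ra fell (-3.23), beside 14.7%. The change of the Adar1 KO effect passed for Fcna (2.48), beside 7.11%.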

How the data were processed

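RNA sequencing of 92 mouse libraries was analysed from 1 table of 29956 named genes. The authors assigned reads to transcripts with kallisto 0.46.0, checked read quality with FastQC and MultiQC, and used edgeR and limma. The deposited unit is log2, that is log2 CPM of the TMM-scaled library plus an offset, and the libraries fell into 6 sets with 1 lowest value each, which were fitted apart.

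Depth was estimated from the lowest value of a set and the most frequent step above it, with a prior count of 2, since raw counts were not used here. It was 6.13 to 49.2 M counts per library. Tables were made with Python 3.11.15. Fits used R 4.3.3 with the package limma 3.58.1, with a mean per group, empirical Bayes moderation with a trend, and Benjamini-Hochberg adjustment over all genes above 1 CPM in at least 3 libraries (6 for fits with cells from brain). There were 21 comparisons of groups and 3 tests of a difference between effects. The fits were tested on simulated data.

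Replicate numbers paired libraries, with r above 0.1 in all of 3 pairs, in 2 of 21 comparisons (ER-Hoxb8 day 4 against day 0, and sgRNA 1 against NTC progenitors), where a block for replicate gave 0 members as without it. Both pairs of sgRNA 1 against NTC macrophages (r 0.16 and 0.15) also passed 0.1, and the block gave the same 4 members there. Alternatives were log2(CPM + 1), no filter on low values, quantile normalization, a replicate block, library weights, a fit of 5 groups for the macrophages, the library series GFPHox or WTHox alone, microglia without YSWT, and leaving out each library. Lists were markers of macrophages, microglia, progenitors, neutrophils, astrocytes, oligodendrocytes, neurons, endothelium and border macrophages, dissociation genes, interferon-stimulated genes, and other genes of the pathway. Genes most like a member were taken by Pearson's r among genes tested. Named DEGs of the pathway list were drawn mostly from the 4 largest log2FC of a comparison, and a few further ones were chosen after their values were seen. C4a and a few other genes planned for the lists were not used here. The members and lists were chosen with earlier results of these data known.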

Additional observations from a re-analysis of the deposited data

Results flagged for a closer look

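Values that a reader may want to look at again are given here without explanation. Of 56 groups of values in which a library could stand apart, 6 held one. C1qa in BMD MLC replicate 3 was 9.50 log2 CPM, with the nearest library of the group at 10.74. C1qc in ER-Hoxb8 MLC replicate 6 was 6.79 (nearest 10.12), and C4b in the same library was 4.56 (nearest 7.44). C4b in Adar1 KO dose 5 replicate 4 was 0.15 (nearest -2.37), C3ar1 in NTC dose 4 replicate 4 was 10.66 (nearest 10.43), and C5ar1 in microglia replicate 8 was 1.93 (nearest 4.74).

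Effects that differed between groups, in a test of the difference, were these. Cfb differed in engraftment effect between ER-Hoxb8 and BMD cells by 7.42. The sgRNA 1 effect differed between macrophages and progenitors by -2.80 for C1qa, -2.73 for C1qb, 2.34 for C3, -1.20 for C3ar1 and 3.99 for Cfb. The Adar1 KO effect differed between dose 5 and dose 1 by -5.22 for Cfb and by -3.63 for C4b, the latter with 3 of 4 Adar1 KO and all 3 NTC libraries of dose 5, and 2 of 3 NTC libraries of dose 1, at 3 counts or fewer, so that its size cannot be relied on.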

How the results depend on the processing

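Member DEG counts moved with some settings, and the cause was not tested for any. BM monocytes vs BM progenitors (2) gave 5 with library weights, 1 with log2(CPM + 1), 0 with no filter on low values and 0 to 1 on leaving out 1 library. ER-Hoxb8 day 0 vs BM progenitors (4) gave 2 with no filter on low values, 2 with quantile normalization and 1 to 5 on leaving out 1 library. ER-Hoxb8 day 4 vs day 0 (0) gave 0 to 3 on leaving out 1 library. ER-Hoxb8 macrophages vs BMD macrophages (0) gave 1 in a fit of 5 groups and 3 with library weights. Adar1 KO vs NTC at dose 4 (1) gave 2 with library weights, 2 with a replicate block and 1 to 2 on leaving out 1 library. Adar1 KO vs NTC at dose 5 (1) gave 0 with log2(CPM + 1), 0 with a replicate block and 0 to 2 on leaving out 1 library. The change of the Adar1 effect, dose 5 minus dose 1 (2), gave 1 with no filter on low values and 1 to 2 on leaving out 1 library. The difference of engraftment effect (1) gave 3 with library weights, 2 with the GFPHox libraries only, 2 with log2(CPM + 1), 2 with quantile normalization, 2 with a replicate block and 1 to 2 on leaving out 1 library. Of the log2FC followed through the other settings, 546 of 594 kept their direction and their side of an adjusted p of 0.05, 29 lost that p, 19 gained it and 0 reversed, whatever their size, and on leaving out 1 library these were 809 of 894, 81, 4 and 0. Which members were called was unchanged in 12 of 24 comparisons with log2(CPM + 1), 13 with library weights, 15 with a replicate block, 18 with no filter on low values and 18 with quantile normalization, and the count over all genes moved by more than 1.5 times in 12 of 24 with log2(CPM + 1). C3 between sgRNA 1 and NTC macrophages, at the fold limit, also lost its call under log2(CPM + 1) (2.00), quantile normalization (1.86), library weights (1.89) and no filter on low values (adjusted p = 0.0806). Raw counts and reads were not used here, so how reads were divided between C4b and its near-identical neighbour C4a was not looked at, and the 6 sets were not joined. Most groups hold 3 libraries, and a difference smaller than the spread between them would have been missed.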
